A study of Dendrobaena veneta with 18 samples.

Results

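Cerebral ganglia of the earthworm Dendrobaena veneta were compared between worms kept for 28 days in topsoil with 10 mg/kg of carbamazepine (high dose, 3 libraries) and worms kept in topsoil with 0.6 mg/kg (low dose, 3 libraries). The features compared were the assembled genes with 10 or more counts in at least 3 of these 6 libraries, 43626 of the 243619 features in the table (17.9%). A further 106187 features had 0 counts in all 6 libraries and 93806 had some counts but missed this limit. The 43626 features belonged to 34314 components of the assembly, and 24971 of them had 10 or more counts in every one of the 6 libraries. In 590 all high dose libraries and no low dose library had 10 or more counts, and in 546 the reverse, so these passed the limit only through the dose at which they are high. The control ganglia (3 libraries) came from worms in soil spiked with methanol alone, and they are used here to place the dosed values. The worms were adults, held in the dark at 15 °C without added food. The labels give no ages, no sex, no strain and no statement of whether a replicate is 1 animal or a pool, so the p-values reflect the spread between these libraries, which may be technical.

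In earthworms the cerebral ganglion, a cluster of neurons near the front end, serves as the brain and is joined to the ventral nerve cord by connectives around the pharynx. Carbamazepine is given against epilepsy. In mammals it acts on voltage-gated sodium channels, which carry the rising phase of the action potential, and limits repeated firing of neurons. Comparing the doses asks which transcripts of nervous tissue changed level with the amount of drug. The files pair no feature with a gene name, a function or a sequence, so each feature is called by the end of its assembly identifier, and the tissue could be checked only against sets of features defined in control worms, not against known nerve markers.

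The 6 libraries held 12536754 to 16359635 counts, and 94.9% to 98.5% of these lay in the features compared. High and low dose ganglia were compared in how many features were detected, with 80699 ± 7098 (SD, n = 3) features of at least 1 count at the high dose and 81769 ± 6984 (n = 3) at the low dose (exact permutation test, two-sided, p = 0.90). The 100 most abundant features took 38.2% ± 4.49 of the counts at the high dose and 33.3% ± 3.82 at the low dose (n = 3 each, exact permutation p = 0.30). With 3 libraries against 3, such a test cannot give a p below 0.10.

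High dose ganglion 3 shared features with libraries of another group. Over 2741 features that were present in some libraries and absent from others in both tissues, its presence pattern correlated at 0.477 with control ganglion 3 and at 0.403 with control gut 3. Every other pair of ganglia was at 0.213 or lower. There were 11 features that control ganglion 3 and control gut 3 both carried at 30 or more counts and that had 0 counts in every library but these and high dose ganglion 3. All 11 were present in high dose ganglion 3 at 5 or more counts (95% exact binomial interval 71.5% to 100%), at a median of 0.436 of the control ganglion level. None of the 11 was among the features compared. For control ganglion 1 and control gut 2, 3 of 14 such features were found in high dose ganglion 3. Within its own group it correlated at 0.178 and 0.164 with high dose ganglia 1 and 2, which correlated with each other at 0.137. The main counts and the named features are given with and without it. Exposed ganglia also matched exposed guts of their own dose group, at 0.677 to 0.810, for low dose ganglia 1 and 2 and high dose ganglia 1 and 2, so those gut libraries cannot be taken as independent of the ganglia. What links these libraries was not tested.

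At an adjusted threshold of 0.05, no feature was called between the doses in the ganglion. The quasi-likelihood test of edgeR, with all 9 ganglia in 1 fit, called 0 of 43626 features (0%) after Benjamini-Hochberg adjustment over all of them, and the smallest adjusted p was 0.0607. It called 3 features without control ganglion 1, 2 without low dose ganglion 2 and 0 without any other single ganglion. At an unadjusted p under 0.05 it found 4802 features (11%), of which 2313 (5.3%) were higher and 2489 (5.71%) lower at the high dose. The 4802 became 3595 without high dose ganglion 3 and 3107 without high dose ganglion 1. Limma-voom also called 0. DESeq2 called 1313 features (3.01%), 418 of them higher (0.958%) and 895 lower (2.05%), and 822 (1.88%) without high dose ganglion 3. Of the 1313, the high and low dose libraries did not overlap for 1083 (82.5%), against 20.9% of all features. All 1313 had an unadjusted p under 0.05 by edgeR, against 11% of all features. Both tools used the same counts, so these shares are not independent support. Limma on log2 FPKM called 86 features with a pseudocount of 1 and 36 with a pseudocount of 0.1, of which 68 and 24 were lower at the high dose. FPKM is the level per kilobase of assembled gene, scaled for library size. Whether any feature was called therefore depended on the tool.

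Fitted differences were large for many features, and most of the largest were towards lower levels at the high dose. Across all features the log2 fold, high over low dose, had a median of -0.04, with a lower quartile of -0.69 and an upper quartile of 0.60. A fitted difference of at least 4-fold was found for 1487 features on the high dose side and 3094 on the low dose side. At 16-fold or more the numbers were 144 and 741. The biological coefficient of variation was 74%, and the spread within groups was similar, with a median SD per feature of 0.55 on the log2 scale at the high dose, 0.58 at the low dose and 0.61 in controls.

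The same fit gave different shares of small p for the 3 pairs of ganglion groups, which share libraries with one another. For low dose against control, 7828 features (17.9%) had an unadjusted p under 0.05, 1 was called by edgeR (0.00229%) and 4074 by DESeq2 (9.34%). For high dose against control the numbers were 1727 (3.96%), 0 (0%) and 153 (0.351%). The comparison of the doses lay between them.

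**Figure D1:**
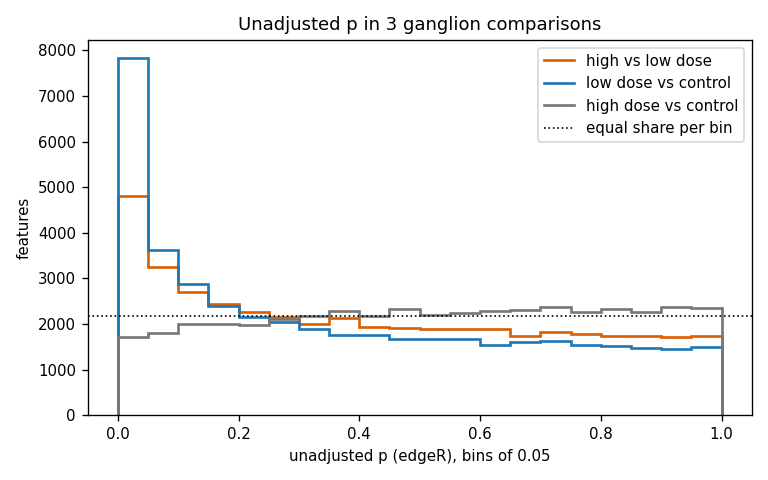
Number of features per bin of unadjusted p (edgeR, 20 bins of equal width) for the 3 pairs of ganglion groups, each over 43626 features, with a dotted line at an equal share per bin. The first bin holds 4802 features for high against low dose, 7828 for low dose against control and 1727 for high dose against control.

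Levels across whole libraries were compared in the same way. Between high and low dose ganglia the correlation of log2 CPM across features ran from 0.624 to 0.796, with a median of 0.720 over 9 pairs. CPM is counts per 1000000 of a library total scaled by TMM. This method gives a scaling factor per library, on the assumption that most features do not differ between libraries. Between high dose and control ganglia the correlation ran from 0.736 to 0.864, with a median of 0.827. Low dose ganglia correlated with one another at 0.742 to 0.813 and high dose ganglia at 0.758 to 0.845. These are correlations across features of the same libraries, and features are not independent replicates.

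The features with the smallest p in each direction were named by rule, 2 per direction, and none of the 4 passed the adjusted threshold. DN105851_c7_g1 had the smallest p of all. It stood at 373, 117 and 201 CPM in low dose ganglia 1, 2 and 3, and at 0.813, 0.567 and 0.815 CPM in high dose ganglia 1, 2 and 3, where it had 10, 9 and 11 counts. All low dose libraries lay more than 100-fold above all high dose libraries, and the ratio of the means was 315. In control ganglia it had 0, 2 and 1 counts, and in the 8 gut libraries never more than 1. Its log2 fold, high over low dose, was -8.29 (SE 0.76, edgeR adjusted p = 0.0607). The adjusted p was 0.0146 without control ganglion 1 and 0.0379 without low dose ganglion 2, and between 0.0635 and 0.660 without any other single library. Without high dose ganglion 3 it was 0.592, at a log2 fold of -8.37 and a ratio of 334.

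DN79348_c3_g2 followed the same order, with single counts at the high dose. It stood at 28.4, 133 and 56.1 CPM in low dose ganglia 1, 2 and 3, and had 0, 0 and 1 counts in high dose ganglia 1, 2 and 3. The ratio of low over high dose was 2879 (95% exact counting interval 516 to 113770, which covers counting error only). The only high dose count lay in high dose ganglion 3. Without that library the low dose was at least 341-fold higher than a floor of 3 counts per high dose library. The fitted log2 fold was -11.10, against -12.99 without high dose ganglion 3 and -10.32 without low dose ganglion 2. Control ganglia had 4, 1 and 4 counts, so the controls sat with the high dose and far below the low dose. Gut libraries had 0 to 15 counts. It passed the count limit only through the low dose libraries, so the filter itself chose it for a difference. The edgeR adjusted p was 0.0613, and it was between 0.0600 and 0.660 when any single ganglion was left out.

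Of the features higher at the high dose, DN103813_c2_g2 had the smallest p. It stood at 264, 253 and 220 CPM in high dose ganglia 1, 2 and 3, and at 51.6, 40.7 and 51.8 CPM in low dose ganglia 1, 2 and 3. The groups were well apart, with means of 245 ± 23.0 and 48.0 ± 6.38 CPM (SD, n = 3), a ratio of 5.11. Control ganglia held 418, 263 and 369 CPM, on the high dose side. The feature belongs to the ganglion-specific set described with the tissue shares, and its counts in gut ran from 1 to 133. The log2 fold was 2.35 (SE 0.31, edgeR adjusted p = 0.313), and 2.43 without high dose ganglion 3.

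DN89454_c7_g1 was absent from the low dose in both tissues. It had 70, 245 and 67 counts in high dose ganglia 1, 2 and 3 and 0 counts in all 3 low dose ganglia. It therefore passed the count limit only through the high dose libraries. The high dose mean of 8.69 ± 5.84 CPM (SD, n = 3) was at least 40.7-fold higher than a floor of 3 counts per low dose library, and at least 49.4-fold without high dose ganglion 3. Control ganglia held 221, 86 and 227 counts. In gut it had 179 to 379 counts in control and high dose libraries and 0 in all 3 low dose libraries, of which low dose guts 1 and 3 were nearly alike (presence correlation 0.914). The edgeR adjusted p in the ganglion was 0.313.

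**Figure D2:**
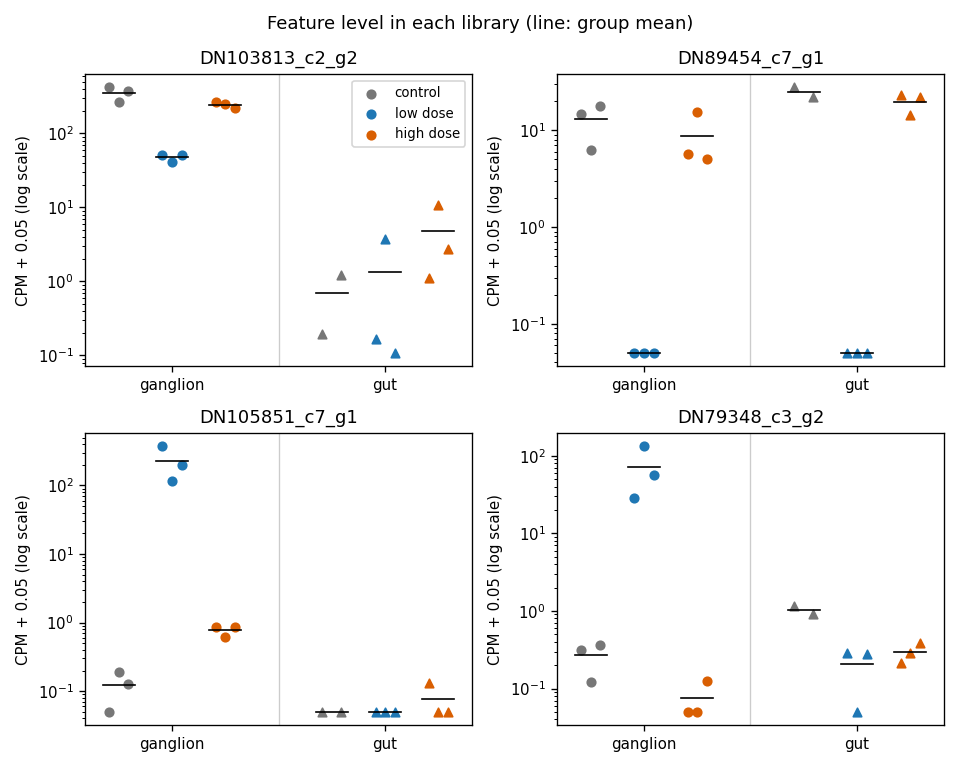
Level of the 4 named features in each ganglion library (circles) and gut library (triangles), as CPM + 0.05 on a log axis, by dose group, with a line at each group mean. In the ganglia DN103813_c2_g2 and DN89454_c7_g1 lie low only at the low dose, and DN105851_c7_g1 and DN79348_c3_g2 lie high only at the low dose.

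The 20 features of smallest p in each direction were described in the same way. All 40 had high and low dose libraries that did not overlap, and DESeq2 called all 40, against 20.9% and 3.01% of all features. The 40 were chosen by p from the same counts, so neither is independent support. In 5 of the higher features all low dose libraries were at 0, and in 3 of the lower features all high dose libraries were. Among the 20 that were higher at the high dose, the control ganglia lay above all low dose libraries for 15 and below all high dose libraries for 6. Over all features the shares were 8.8% and 4.59%. Among the 20 that were lower, the controls lay below all low dose libraries for 19 and above all high dose libraries for 1, against 13.5% and 3.31% of all features. The absolute log2 fold had a median of 2.66 (1.83 to 11.85) among the higher and 6.16 (1.73 to 11.29) among the lower features.

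Libraries of the doses did not overlap for 9135 features (20.9%). All high dose ganglia were above all low dose ganglia for 4953 (11.4%), and all low dose above all high dose for 4182 (9.59%). Leaving out high dose ganglion 3, which leaves 2 libraries against 3 and so makes separation easier, gave 6448 and 6172. The total of 9135 became 15745 without high dose ganglion 2 and 14081 without low dose ganglion 3. For 1761 features the groups were separated by a gap of at least 2-fold, 958 higher (2.2%) and 803 lower (1.84%) at the high dose. With the same rule, low dose and control were separated for 3172 features (7.27%), and high dose and control for 425 (0.974%). The 958 and 803 can hold features that passed the count limit only through the dose at which they are high. Among all features compared these numbered 590 and 546, and how many have a 2-fold gap was not counted.

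Among features with a 2-fold gap, control ganglia were apart from the low dose more often than from the high dose. Of the 803 lower at the high dose, the controls were below all low dose and not above all high dose libraries for 656 (81.7%). For 33 of these the controls lay below all high dose libraries too. They were above all high dose libraries, and not apart from the low dose, for 25 (3.11%). Over all 43626 features, low dose was above control without overlap for 13.5% and control above high dose for 3.31%. The median level of these 803 features was 6.98 CPM at the low dose, 0.384 at the high dose and 0.493 in controls. Of the 958 higher at the high dose, the controls were above all low dose and not below all high dose libraries for 401 (41.9%). They were below all high dose and not above all low dose libraries for 131 (13.7%). Of the 401, 6 had controls above all high dose libraries, and of the 131, 3 had controls below all low dose libraries. Over all features, control was above low dose without overlap for 8.8% and high dose above control for 4.59%. Their median level was 0.651 CPM at the low dose, 4.09 at the high dose and 3.28 in controls.

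Without high dose ganglion 3 and control ganglion 3, the gap was met by 1386 higher and 1508 lower features. By the same rules, controls were apart from the low dose on the high dose side for 65.5% and 67.4% of these. They were apart from the high dose on the low dose side for 16.8% and 12.5%. Features with controls apart from both doses in this sense were left out of both shares. Fewer libraries make separation easier, and shares over all 43626 features by this rule were not counted, so these shares have no background beside them. Within these sets the controls lay on the high dose side more often than on the low dose side, in both directions.

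**Figure D3:**
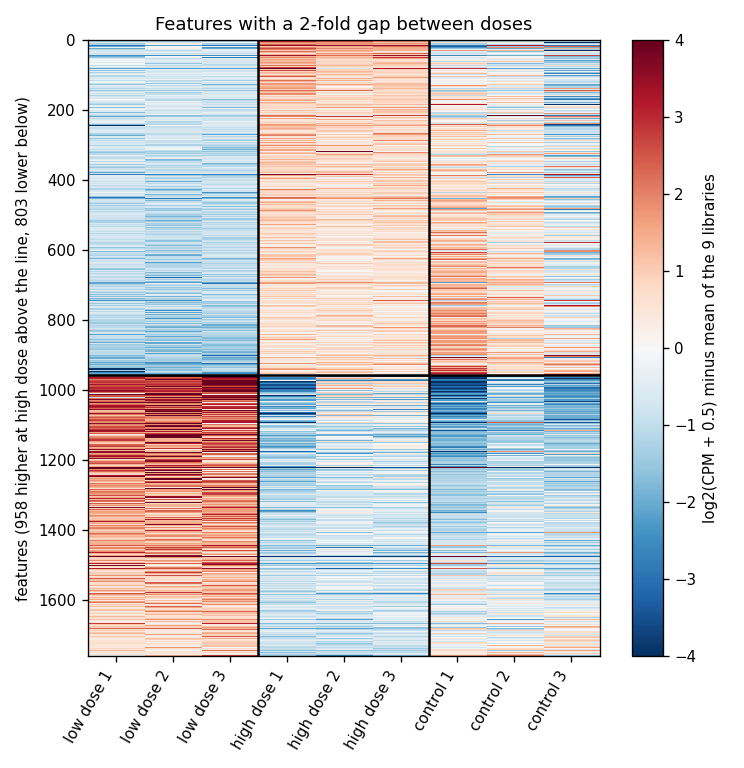
Level of the 1761 features with a 2-fold gap between the doses in each of the 9 ganglia, as log2(CPM + 0.5) minus the feature's mean over the 9 libraries, with colours limited to 4 in either direction. The dosed columns were used to choose the features and the control columns were not, and for the 803 lower features the controls are mostly as blue as the high dose.

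Ganglion-specific features took a larger share of the counts at the high dose than at the low dose. This set of 222 features was defined in control worms alone, with at least 20 CPM in every control ganglion and at least 20 times the highest control gut. It held 10.1%, 7.33% and 9.24% of the counts in high dose ganglia 1, 2 and 3, and 4.68%, 2.89% and 4.41% in low dose ganglia 1, 2 and 3. Every high dose library was above every low dose library, with means of 8.89% ± 1.41 and 3.99% ± 0.963 (SD, n = 3). The exact two-sided permutation p was 0.10, the smallest that 3 against 3 can give, and 0.35 after Benjamini-Hochberg adjustment over 7 library measures. Control ganglia held 12.2%, 7.46% and 4.61%, of which the lowest lay within the low dose range and the highest above the high dose range. The set was defined by high levels in control ganglia, which favours a large share there. Control and high dose ganglia of the same number deviated together, and high dose ganglion 3 shared features with control ganglion 3. Whether the choice of features also favoured the high dose libraries was not tested. Without high dose ganglion 3 the difference of the means was 4.72 percentage points, against 4.90. In bulk tissue, fewer cells of a type and less RNA per cell cannot be told apart.

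Gut-specific features, at least 20 CPM in every control gut and at least 20 times the highest control ganglion, held more of the counts at the low dose. The 839 features of this set held 0.129%, 0.539% and 0.113% of the counts in low dose ganglia 1, 2 and 3, and 0.0409%, 0.0760% and 0.0898% in high dose ganglia 1, 2 and 3. The groups did not overlap, the exact permutation p was again 0.10, and low dose ganglion 2 was the highest. Without low dose ganglion 2 the difference of the means shrank from -0.191 to -0.0521 percentage points, and without high dose ganglion 3 it was -0.202. Control ganglia held 0.0353% to 0.0508%, below all low dose libraries. The set was defined by low levels in control ganglia, so this place of the controls is built into the choice of features.

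**Figure D4:**
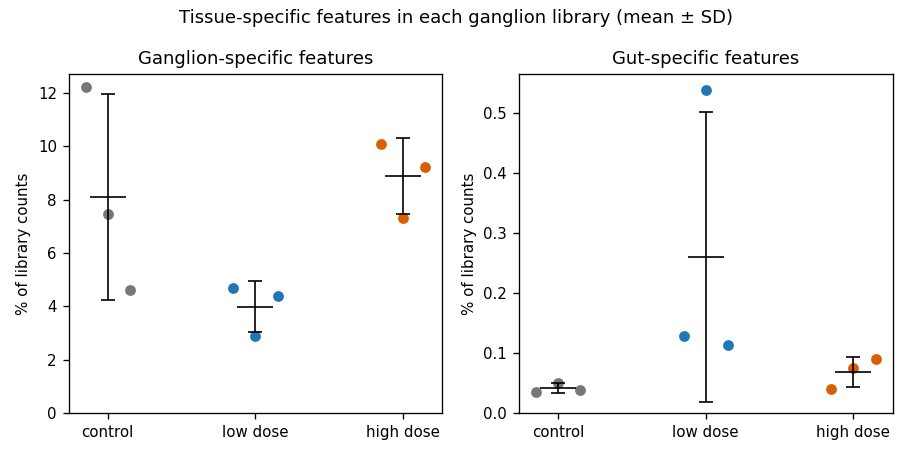
Share of each ganglion library's counts in the 222 ganglion-specific and 839 gut-specific features defined in control worms, one point per library, with the mean and SD of each group. The low dose libraries lie between 2.89% and 4.68% for the first set and at 0.113% or more for the second.

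Feature by feature, the ganglion-specific set had mostly positive folds. Of its 222 members, 210 had a positive log2 fold of high over low dose, and the median was 1.12 against -0.04 for all features, of which 48.0% were positive. The high dose libraries were all above the low dose libraries for 110, and the reverse was found for 0, where all features had 11.4% and 9.59%. At an unadjusted p under 0.05, 92 were higher and 1 lower, against 5.3% and 5.71% of all features, and none passed the adjusted threshold. Without high dose ganglion 3, 203 were positive, 60 were higher and 0 lower at an unadjusted p under 0.05, with 1593 higher and 2002 lower among all features. Of the 839 gut-specific features, 206 were among those compared in the ganglion. These features are low in control ganglia by definition, so the count limit can admit them through the dose at which they are higher. The limit may have chosen part of the differences that follow, and how many was not counted. Of the 206, 45 had a positive log2 fold, and the median was -1.38. For 50 the low dose was above the high dose without overlap, and for 9 the reverse, beside the same shares of 9.59% and 11.4% over all features. Without high dose ganglion 3, 40 were positive. Whether choosing these sets in control worms favoured a difference between the doses was not tested. The sets are described by counts, with no test of the set.

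Features less strictly biased to ganglion were then counted. Among all 43626 features, 7073 (16.2%) were at least 4-fold higher in control ganglion than in control gut, with 0.5 added to each mean CPM. Among the 2313 features higher at the high dose at an unadjusted p under 0.05, this was so for 1377 (59.5%), and among the 2489 lower features for 104 (4.18%). In the opposite sense, 2205 of all features (5.05%) were at least 4-fold higher in control gut, against 28 (1.21%) of the higher and 429 (17.2%) of the lower features. Of the DESeq2 calls, 60.8% of the higher and 3.35% of the lower features were ganglion-biased in this way. Without high dose ganglion 3, 58.3% of the higher and 5.79% of the lower features at an unadjusted p under 0.05 were. The ratio uses the level in control ganglia, which lay on the high dose side more often among features with a 2-fold gap. A feature low only at the low dose thus tends to a higher ratio, and a feature high only there to a lower one. The choice may have built in part of these shares, and how much was not tested. The part that a differing tissue makeup of the dissected samples had in these results was not tested.

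Differences were also found among features with like levels in both tissues. Of 22068 features within 2-fold between control ganglion and control gut, the doses were separated by a 2-fold gap for 175 on the high dose side and 487 on the low dose side, 3% in all against 4.04% of all features. At an unadjusted p under 0.05 there were 1805 (8.18%), against 11% of all features.

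Some features were present in all libraries of a dose and absent from the other. A total of 42 features (0.0963%) had 0 counts in all low dose ganglia and 10 or more in each high dose ganglion, and 72 (0.165%) had the opposite pattern. In 22 of the 72 low-dose-only features all 3 control ganglia were at 0, and in none of the 72 did all 3 controls reach 10 counts. Of the 42 high-dose-only features, 6 had controls at 0 throughout and 3 had 10 or more counts in all 3 controls. Their mean FPKM had a median of 5.94 (1.39 to 305) for the high-dose-only and 8.22 (1.44 to 738) for the low-dose-only features. The total of 114 became 206 without high dose ganglion 3, of which 164 were low-dose-only, 208 without high dose ganglion 2 and 189 without low dose ganglion 2. All 114 passed the count limit only through the dose at which they are present, so their p-values are no support for a difference. Each of the 114 had an unadjusted p under 0.05 by edgeR, against 11% of all features. DESeq2 called 30 of the 42 and 61 of the 72, against 3.01% of all features. DN89454_c7_g1, named above, is among the 42.

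Present or absent transcripts also separated libraries of the same dose. Among the features compared, 257 to 739 had 50 or more counts in 1 high dose ganglion and 0 in another, and 249 to 588 did so between low dose ganglia. Between a high dose and a low dose ganglion the number ran from 346 to 1246, and the pairs with high dose ganglion 1 were the highest, at 890 to 1246. These differences within a dose group contribute to the spread against which the doses were tested.

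The same features were then examined in gut, where high and low dose differed at an unadjusted p under 0.05 for 2131 of 43626 features (4.88%) and 4 were called (0.00917%). Of the 958 features higher at the high dose with a 2-fold gap in the ganglion, 245 had a mean of 1 CPM or more in dosed gut. In 80 of these (32.7%) all high dose guts were also above all low dose guts, and the reverse was so for 11 (4.49%). Of the 803 lower features 326 were expressed in dosed gut, where the low dose was above the high dose without overlap for 87 (26.7%) and below it for 30 (9.2%). With the 2-fold gap taken without high dose ganglion 3, the same direction was found for 31.1% of the higher and 32.5% of the lower features, and the opposite for 4.86% and 6.81%. Over all 29711 features expressed in dosed gut, the high dose was above for 11.7% and the low dose for 11.9%. The median gut log2 fold was 0.55 for the higher, -0.37 for the lower and -0.03 for all features. Low dose guts 1 and 3 correlated at 0.914 in presence and high dose guts 1 and 3 at 0.826, and each dosed gut matched a ganglion of its dose, so the gut values are not independent support.

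**Figure D5:**
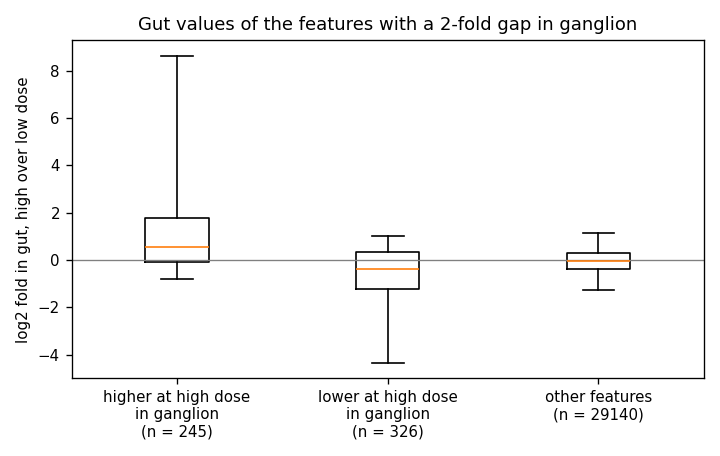
Fitted log2 fold of high over low dose in gut for features with a mean of at least 1 CPM in dosed gut, split by their difference in the ganglion. Boxes span the 25th to 75th percentile with a line at the median, and whiskers reach the 5th and 95th percentile; the median is 0.55 for features higher in high dose ganglia and -0.37 for those lower.

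The dose difference itself was compared between ganglion and gut in a fit over both tissues, with low dose guts 1 and 3 averaged because their counts differed by a mean chi-square of 2.32 per feature, against 34.3 or more for the other low dose gut pairs. Only 1 feature of 43626 (0.00229%) was called by edgeR, and 2899 (6.65%) had an unadjusted p under 0.05. The called feature, DN88869_c4_g1, was chosen after its values were seen. It stood at 6.43, 5.29 and 7.63 CPM in high dose ganglia 1, 2 and 3 and at 6.58, 7.19 and 9.90 CPM in low dose ganglia 1, 2 and 3, so that the ganglion groups overlapped. In gut it stood at 104 to 105 CPM in the low dose and at 2.23 to 3.99 CPM in the high dose libraries. The difference of the log2 folds was 4.86 (SE 0.41, edgeR adjusted p = 0.000865). This fit took matched ganglion and gut libraries, and high dose guts 1 and 3, as separate samples. With high dose guts 1 and 3 averaged as well, the adjusted p was 0.00367. With the 12 libraries of the 6 matched pairs and the match as a block, which leaves 3 residual degrees of freedom, 0 features were called (2326 at an unadjusted p under 0.05), and DN88869_c4_g1 had a difference of 5.11 (SE 0.56, edgeR adjusted p = 0.15). Both alternatives were chosen after seeing the data. Of the 4 features named for the ganglion none passed the test over 16 samples, with an adjusted p of 0.0660 for DN79348_c3_g2, which passed without low dose ganglion 1 (0.0392) and with all 17 libraries separate (0.0163), 0.652 for DN105851_c7_g1 and higher values for the other two.

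More abundant features had small p more often. At an unadjusted p under 0.05 the share rose with the mean FPKM of the dosed ganglia, from 8.31% of 11936 features at 0.5 to 2 FPKM, over 11% of 20330 at 2 to 10 and 14.2% of 9359 at 10 to 100, to 20% of 1012 at 100 or more. A 2-fold gap was found for 4.77%, 3.63%, 3.83% and 5.63% of the same classes. By the length that counts and FPKM together imply, which could be had for 27767 features with a median of 1606 bases, a 2-fold gap was met by 5.16% of those under 500 bases and by 1.59% of those of 4000 bases or more. At an unadjusted p under 0.05 the shares of these length classes were 11.4% and 12.1%, with 14.5% at 1000 to 2000 bases. By this measure the share did not fall steadily with length. The 20 features of highest mean FPKM with an implied length of 200 bases or more ranged from 5405 to 64162 FPKM. Of these, 15 had a positive log2 fold, 2 had an unadjusted p under 0.05 and DESeq2 called 1, where all features had 48.0%, 11% and 3.01%. The highest of them stood at 92664, 67828 and 61524 FPKM in high dose ganglia 1, 2 and 3 and at 81782, 43545 and 37627 FPKM in low dose ganglia 1, 2 and 3, which overlap (log2 fold 0.47, edgeR adjusted p = 0.832).

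Features of 1 component of the assembly, which can be variants or parts of a gene, were more often separated in 1 direction than in both. A 2-fold gap was found on the high dose side in 931 components and on the low dose side in 768, and 4 components held both kinds. Among components with 2 or more such features, 23 had them on the high dose side alone and 33 on the low dose side alone. In 3 of these 4 the summed counts of the component overlapped between the doses. One of them, chosen for its level, had a feature at 65, 62 and 53 counts in high dose ganglia 1, 2 and 3 and at 12, 11 and 20 in the low dose ganglia, and another at 0, 4 and 10 counts in the high dose and at 64, 55 and 150 in the low dose ganglia. Its sum stood at 10.2, 6.93 and 7.11 CPM in high dose ganglia and 6.52, 6.59 and 15.8 CPM in low dose ganglia. When counts were summed over every component, edgeR called 2 of 35706 components (0.0056%), with 4516 (12.6%) at an unadjusted p under 0.05. The 2 were those of DN105851_c7_g1 and DN79348_c3_g2, both lower at the high dose with an adjusted p of 0.0272. As a feature, DN79348_c3_g2 passed the count limit only through the low dose libraries. Libraries were not left out in turn for the summed counts.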

How the data were processed

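Libraries of poly(A)-selected RNA were read on an Illumina instrument, and reads were assembled de novo, per the labels. CASAVA and DESeq2 are named in the submitters' processing notes. For versions, the counting program and assembly filters, nothing is given in the sources used here. Per assembled gene, the authors deposited expected counts, not scaled between libraries, and FPKM values, scaled to length and library size. Of 18 labelled samples 17 had a column, and control gut 1 is not analysed here.

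The expected counts were first rounded to integers, and library sizes were totals over all features. Features were tested two-sided with the quasi-likelihood method of edgeR 4.0.16 (R 4.3.3) with TMM scaling, using 9 ganglia in 3 groups, and called at an adjusted p under 0.05. The SE is the absolute log2 fold over the square root of F. Alternatives were DESeq2 1.42.0, limma 3.58.1 (voom, and log2(FPKM + pseudocount), which understates folds of low features), other filters and scalings, and leaving out libraries. DESeq2 gave no adjusted p for 478 features, which were not counted as called. Control and high dose ganglia of the same number deviated together (correlations 0.182, 0.208 and 0.216). A replicate block was fitted over all 9 ganglia and read for each pair of groups, and also over the libraries of each pair alone. Single library values were compared by exact permutation. The members, sets and rules were chosen with earlier results of these data known. Named features are those with the lowest adjusted p, 2 for each direction, with ties broken by p. Intervals and floors cover counting error only.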

Additional observations from a re-analysis of the deposited data

Results flagged for a closer look

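The dose difference of DN88869_c4_g1 was not alike in ganglion and gut. The test of the difference of the log2 folds, ganglion minus gut, gave 4.86 (SE 0.41, edgeR adjusted p = 0.000865). Within the ganglion high over low dose stood at a log2 fold of -0.29 (SE 0.37, edgeR adjusted p = 0.831), and in gut it was -5.17. The adjusted p of the difference was between 0.00143 and 0.00581 when any 1 dosed ganglion was left out. No gut library was left out in turn, so this range does not bear on the gut values, where the difference lay. With the 6 matched pairs of ganglion and gut libraries as a block it was 0.15, at a difference of 5.11, so the call did not hold there. Groups of 3 libraries were not searched for single outlying libraries.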

How the results depend on the processing

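The number of features called, 0 with the main settings, was 1 with only the 6 dosed ganglia (DN107708_c1_g3), 2 with counts summed per component, 4406 with no filter on low counts, 1313 with DESeq2, 86 with limma on FPKM at a pseudocount of 1 and 36 at 0.1. DN107708_c1_g3 passed the count limit only through the low dose libraries. Leaving out each ganglion in turn gave 0 to 3 calls. The number called was 0 with RLE scaling, robust dispersion, filterByExpr, a mean of 50 or more counts and limma-voom. The number at an unadjusted p under 0.05 was 13804 with no filter and 3107 to 5860 without each ganglion. With the replicate number as a block over all 9 ganglia, 0 features were called and 5143 had an unadjusted p under 0.05. Low and high dose ganglia of the same number deviated from their group means with correlations of 0.0332, 0.0600 and 0.125, so the numbers were not taken as pairing; each correlated best with its own number, which is only a hint. For high dose against control, whose numbers did deviate together, this block gave 0 calls and 1706 features at an unadjusted p under 0.05, against 0 and 1727. A block over only the libraries of that pair gave 0 calls and 1883 features. For low dose against control, with correlations of 0.0181, -0.0170 and 0.0923, the block over all 9 ganglia gave 0 calls against 1. The difference between ganglion and gut gave 2 calls with all 17 libraries separate, 1 with high dose guts 1 and 3 averaged too, 0 with matched libraries as a block and 1 to 2 without each dosed ganglion. Features without overlap numbered 1761 with a 2-fold gap and 12047 to 15745 without each dosed ganglion, and present-or-absent features 146 to 208. The ganglion-specific share differed by 4.90 percentage points, by 7.09 with sets at 10 times and by 3.63 at 50 times. No direction of the 4 named features reversed in 22 settings. The causes were not tested.

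With 3 libraries a group, single library values cannot reach a p under 0.10, and 12536754 to 16359635 counts a library limit low features most.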

Other observations

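A pair of features from different components, chosen after their values were seen, moved in parallel across both tissues. DN107708_c1_g3 had 4799, 2748 and 4179 counts in low dose ganglia 1, 2 and 3 and 2, 4 and 4 in high dose ganglia 1, 2 and 3. DN77881_c3_g3 had 9062, 5256 and 7592 counts in the low dose and 3, 2 and 10 in the high dose ganglia. In the 11 libraries of either tissue where both had 50 or more counts, the second had 1.43 to 2.16 times the counts of the first. In the other 6 libraries neither passed 14 counts. Control ganglion 1 held 3576 and 7189 counts of them, and control ganglia 2 and 3 held 1 to 11. Their log2 folds, high over low dose, were -10.16 (edgeR adjusted p = 0.313) and -10.45 (edgeR adjusted p = 0.317) with all 9 ganglia. Without control ganglion 1, the only control ganglion that held the pair, both were called, at an edgeR adjusted p of 0.00103 and 0.0165. DN107708_c1_g3 passed the count limit only through the low dose libraries, so the filter itself chose it for a difference. DN77881_c3_g3 reached 10 counts at the high dose only in high dose ganglion 3. These calls are therefore no independent support for a dose difference.

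Libraries that matched in presence differed in this pair. High dose guts 1 and 3, which correlated at 0.826, held 65 and 4295 counts of DN107708_c1_g3. Control ganglion 1 held 3576, and control gut 2, which correlated with it at 0.770, held 8.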
